A study of Mus musculus with 9 samples.

Results

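The 10 goblet cell genes Muc2, Fcgbp, Zg16, Tff3, Clca1, Agr2, Retnlb, Spink4, Spdef and Atoh1 were followed across the colons of 9 mice. They were taken by gene symbol from a fixed list, and all 10 were found among 21498 symbols, each on a single row. Goblet cells are the mucus-secreting cells of the intestinal epithelium. They fold, glycosylate, pack and release the gel-forming mucin MUC2, which swells into the layer that keeps bacteria away from the colon surface. They arise from progenitors that escape Notch signaling, switch on ATOH1 and then depend on SPDEF to mature, and cytokines such as IL-13 are known inducers of several of their secreted products.

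The mice were male ICR, an outbred strain, 5 weeks old at the start and killed at the end of week 18, with 3 mice in each of 3 groups. Control mice received neither AOM/DSS nor antibody, and their samples are labelled normal colorectal mucosa. The other groups received a single 10 mg/kg injection of the colon carcinogen azoxymethane (AOM) and then drank dextran sulfate sodium (DSS), an agent toxic to the colon epithelium, in 3 cycles, a 7-day cycle at 2% followed by a pair of 5-day cycles at 1.5%. During the DSS cycles they were given 1.5 mg/kg of IgG Ab or of anti-S100a9 Ab, which is directed at a calcium-binding protein of neutrophils and monocytes. The labels call the tissue of both AOM/DSS groups colorectal adenocarcinoma, so treatment and tissue type cannot be told apart in a comparison with Control, although the study describes the tissue from anti-S100a9 Ab mice as mucosa. The study also introduces the tissue of all 3 groups as intestinal mucosa. Expression was deposited as 1 value per gene and mouse in the form of FPKM, fragments scaled to transcript length and library size, which sets genes of different length on one scale. The number of fragments behind a value is unknown.

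One library stood apart. Replicate 1 of AOM/DSS + IgG Ab was the lowest of the 9 samples for 10 of 10 goblet cell genes, against 19.3% of all 15278 genes tested. Its 10 genes together made up 0.62% of the total FPKM, compared with 3.56% and 4.62% in replicates 2 and 3 of its group, 2.48% to 3.34% in Control and 2.11% to 2.77% with anti-S100a9 Ab. Epcam, a surface protein of all gut epithelial cells, was listed at 691 FPKM in that library, within the Control range of 637 to 786. Because it was the lowest sample for every goblet cell gene, each comparison with that group is given with and without it, a choice made after its values were seen. For Clca1 the spread of the group was not set by this library alone. Replicates 1 and 3 were both low, at 42.4 and 132 FPKM, and replicate 2 was at 542 FPKM. In RNA from whole tissue, fewer goblet cells and less RNA of these genes per cell cannot be told apart.

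The upstream sequences of 3 of the genes are shown because Muc2 and Spdef are among those that were higher in replicates 2 and 3 of AOM/DSS + IgG Ab, whereas Fcgbp was lower in all 3 replicates. RefSeq promoters on GRCm38.p6 were matched for 5 of the 10 genes (Muc2, Fcgbp, Agr2, Spdef and Atoh1). The 250 bases before the annotated start are written 5′ to 3′ on the strand of the gene, with the motifs CAGCTG and TATAAA in capitals. They lie at chr7:141690090-141690339 (plus strand) for Muc2, chr7:28070986-28071235 (plus strand) for Fcgbp and chr17:27728952-27729201 (minus strand) for Spdef.
Muc2: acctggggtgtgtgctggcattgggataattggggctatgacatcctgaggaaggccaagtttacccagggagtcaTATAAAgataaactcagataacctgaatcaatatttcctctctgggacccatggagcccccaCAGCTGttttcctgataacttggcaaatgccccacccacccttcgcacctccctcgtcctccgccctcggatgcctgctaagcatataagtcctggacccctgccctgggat
Fcgbp: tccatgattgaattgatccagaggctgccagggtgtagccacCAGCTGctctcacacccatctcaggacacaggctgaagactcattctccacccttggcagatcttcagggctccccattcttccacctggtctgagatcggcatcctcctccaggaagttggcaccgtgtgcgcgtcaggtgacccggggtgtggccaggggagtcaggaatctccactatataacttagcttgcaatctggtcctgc
Spdef: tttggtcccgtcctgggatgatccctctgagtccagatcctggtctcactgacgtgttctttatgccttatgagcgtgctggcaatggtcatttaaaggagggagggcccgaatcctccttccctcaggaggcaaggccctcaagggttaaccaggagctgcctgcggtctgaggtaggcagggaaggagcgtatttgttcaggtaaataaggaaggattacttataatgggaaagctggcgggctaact
Both strands were searched. CAGCTG, which reads the same on both strands and is a form of the E-box bound by helix-loop-helix factors such as ATOH1, was found in 2 of the 5 windows, at -112 in Muc2 and at -208 in Fcgbp, and in 13.0% of 32851 RefSeq promoters searched over the same length. Another E-box form, CAGATG, was found in 0 of the 5 and in 14.4% of all promoters. CCGGAT, a core of the sites of ETS factors such as SPDEF, was in 0 of the 5 and in 4.94% of all, and the forkhead motif TGTTTAC was in 0 of the 5 and in 3.17% of all. TATAAA was found in Muc2 at -174 and in 12.4% of all promoters. None of these motifs overlapped another in the windows shown.

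In normal mucosa the goblet cell genes were among the most highly expressed genes of the whole table. By mean FPKM of the Control samples, Zg16 ranked 6 of 21498 symbols and Tff3 ranked 8, followed by Spink4 (18), Agr2 (31), Clca1 (46), Retnlb (100), Fcgbp (119) and Muc2 (187). The transcription factors Atoh1 and Spdef ranked 2433 and 3946. In this order the Control samples of Zg16 and Tff3 overlapped, as did those of Clca1 and Retnlb and those of Retnlb and Fcgbp, while the other neighbors did not overlap. The Muc2 model of the annotation used here is short for so large a mucin (its longest transcript has 2926 bases), and the gene model behind the deposited value is not given in the sources used here, so the place of Muc2 in this order depends on a length that could not be checked.

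**Figure D1:**
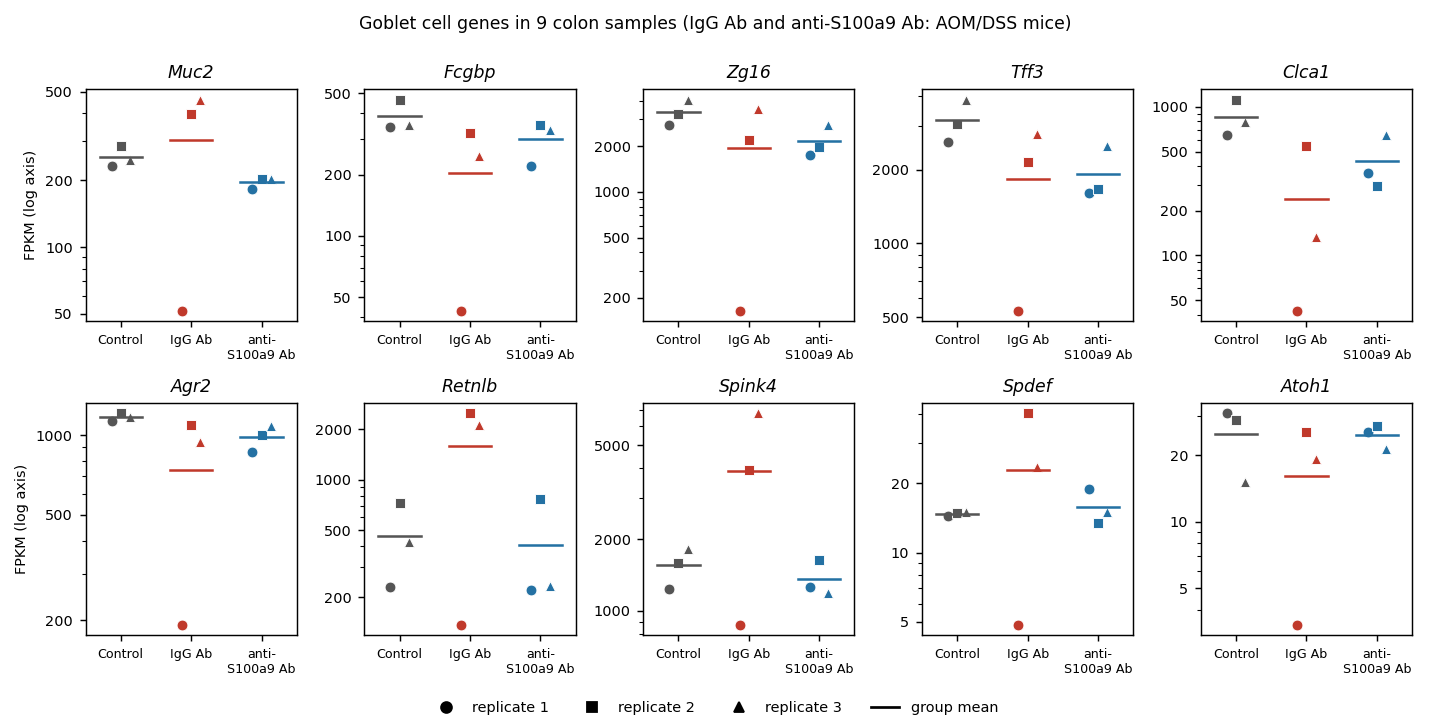
FPKM (log axis) of the 10 goblet cell genes in each of the 9 mice, by group, with a symbol for each replicate number and a line at the group mean. Replicate 1 of AOM/DSS + IgG Ab (red circle) is the lowest point in 10 of 10 panels, and the other red points lie above all Control and anti-S100a9 Ab points for Muc2, Retnlb, Spink4 and Spdef.

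The structural proteins of mucus came first. Muc2 (chromosome 7, 141690340 to 141754693, plus strand on GRCm38, as are all positions here) encodes the gel-forming mucin itself. It was listed at 232, 287 and 247 FPKM in Control, 51.6, 398 and 461 with IgG Ab, and 183, 202 and 202 with anti-S100a9 Ab. Replicates 2 and 3 of the IgG Ab group were thus above all the other samples and replicate 1 was below them, while the anti-S100a9 Ab samples lay in a narrow band below every Control sample. Fcgbp (chromosome 7, 28071236 to 28120862, plus strand) encodes a large protein that is bound to MUC2 in the mucus. Its values were 340, 465 and 349 FPKM in Control, 42.9, 319 and 246 with IgG Ab, and 219, 349 and 331 with anti-S100a9 Ab. All 3 IgG Ab samples were below all Control samples, whereas the anti-S100a9 Ab samples overlapped with both groups.

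Zg16 (chromosome 7, 127050156 to 127087328, minus strand) encodes a lectin that binds Gram-positive bacteria in the mucus. It was at 2746, 3285 and 4054 FPKM in Control, 164, 2185 and 3502 with IgG Ab, and 1753, 1963 and 2745 with anti-S100a9 Ab. Replicates 2 and 3 of the IgG Ab group were at 13.3 and 21.3 times the level of replicate 1, and the highest anti-S100a9 Ab sample was just under the lowest Control sample. Tff3 (chromosome 17, 31125306 to 31129646, minus strand) encodes a trefoil peptide of epithelial repair. Its values were 2593, 3058 and 3851 FPKM in Control, 531, 2149 and 2789 with IgG Ab, and 1598, 1668 and 2497 with anti-S100a9 Ab. As for Zg16, the anti-S100a9 Ab samples were all below Control and the IgG Ab samples overlapped with Control through replicate 3.

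Clca1 (chromosome 3, 145003817 to 145032776, minus strand) encodes a secreted metalloprotease that remodels the mucus. It was listed at 653, 1120 and 789 FPKM in Control, 42.4, 542 and 132 with IgG Ab, and 362, 293 and 643 with anti-S100a9 Ab. It was the one goblet cell gene that was low in both replicate 1 and replicate 3 of the IgG Ab group, at 4.96% and 15.5% of the Control mean. The files also list the neighboring genes Clca2, Clca3a1, Clca3a2, Clca3b, Clca4a and Clca4b, and how reads shared between such paralogs were counted is not known.

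Agr2 (chromosome 12, 35992907 to 36004087, plus strand) encodes a protein disulfide isomerase of the endoplasmic reticulum that is needed to fold MUC2. It varied least among the Control samples of the secretory genes, at 1128, 1206 and 1170 FPKM. Its values were 193, 1087 and 940 with IgG Ab and 862, 1003 and 1085 with anti-S100a9 Ab, so that all 6 AOM/DSS samples were below all Control samples. Among the effector proteins, Retnlb (chromosome 16, 48816856 to 48818892, plus strand) encodes RELM beta, an antibacterial protein of goblet cells. It was at 230, 731 and 425 FPKM in Control, 137, 2479 and 2120 with IgG Ab, and 221, 762 and 234 with anti-S100a9 Ab. Retnlb spread more than any other of the 10 within the Control group and within the anti-S100a9 Ab group relative to its mean (462 ± 252 and 406 ± 309 FPKM, SD, n = 3 each). Spink4 (chromosome 4, 40920052 to 40931395, plus strand) encodes a Kazal-type protease inhibitor. Its values were 1241, 1593 and 1831 FPKM in Control, 874, 3941 and 6795 with IgG Ab, and 1255, 1640 and 1187 with anti-S100a9 Ab. Spink4 was the goblet cell gene least lowered in replicate 1 of the IgG Ab group, at 56.2% of the Control mean, and in replicate 3 it stood at 437% of that mean.

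The transcription factors were lower in level than the secretory genes. Spdef (chromosome 17, 27714352 to 27728955, minus strand), an ETS factor of goblet cell maturation, was nearly constant in Control at 14.4, 14.8 and 15.1 FPKM. It was at 4.86, 40.3 and 23.6 FPKM with IgG Ab and at 18.9, 13.5 and 15.1 FPKM with anti-S100a9 Ab, so that the IgG Ab samples lay on both sides of all the others. Atoh1 (chromosome 6, 64729125 to 64731245, plus strand, a single exon), the factor that commits progenitors to the secretory lineage, was at 30.9, 28.7 and 15.1 FPKM in Control, 3.42, 25.3 and 19.3 with IgG Ab and 25.6, 27.0 and 21.3 with anti-S100a9 Ab. Outside replicate 1 of the IgG Ab group, its 8 values overlapped between all groups.

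The comparison AOM/DSS + IgG Ab vs Control sets AOM/DSS tissue from mice given a control antibody against normal mucosa from mice given neither, so AOM/DSS, antibody and tissue type cannot be told apart. Of the 10 goblet cell genes, 7 had a lower and 3 a higher fitted level, and 0 passed an adjusted p of 0.05 by limma on log2(FPKM + 0.1), with Benjamini-Hochberg adjustment over all genes tested, of which 11.2% passed. At an unadjusted p under 0.05 the count was 1 of 10, compared with 29.5% of all genes. Their median log2 difference was -0.997, compared with 0.09 over all genes, and without IgG Ab replicate 1 it was -0.16, compared with 0.05. Clca1 alone reached the thresholds of the study (unadjusted p under 0.05 with a change above 2-fold), as did 5.19% of all genes in the lower direction. Its log2 fold change was -2.52 (SE 0.78, limma adjusted p = 0.0697), a fold of 0.174 with a 95% interval of 0.0513 to 0.592. Without IgG Ab replicate 1 the log2 fold change of Clca1 was -1.64 (limma adjusted p = 0.144), and without replicate 2 it was -3.47 (limma adjusted p = 0.00543). Agr2, Clca1 and Fcgbp were lower in all IgG Ab samples than in any Control sample, as were 10.2% of all genes tested. Median-of-ratios scaling left the same 3 genes (13.7% of all genes), and scaling to 10 pan-epithelial genes added Tff3 (9.9% of all genes). Under quantile normalization only Clca1 did not overlap, compared with 14.9% of all genes in the lower direction.

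For the other members the interval of the fold was wide. The log2 fold change was -1.62 (SE 0.97) for Zg16, -1.35 (SE 0.65) for Fcgbp, -1.09 (SE 0.60) for Tff3, -1.01 (SE 0.57) for Agr2 and -0.99 (SE 0.65) for Atoh1, with limma adjusted p-values between 0.203 and 0.339. Retnlb had a log2 fold change of 1.11 (SE 1.05), Spink4 of 0.90 (SE 0.67) and Spdef of 0.18 (SE 0.63), with limma adjusted p-values of 0.516, 0.398 and 0.877. Muc2 gave -0.27 (SE 0.70, limma adjusted p = 0.829) although its mean FPKM was higher with IgG Ab (304 ± 220) than in Control (255 ± 27.9, SD, n = 3 each), because the fit averages log values, in which replicate 1 weighs more. Its 95% interval ran from 0.278 to 2.49 times the Control level, so changes within that range, in either direction, could not be told from 0 with these 3 mice.

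Leaving out replicate 1 of the IgG Ab group changed which genes were called. With the 8 remaining samples, Muc2, Spdef and Spink4 were higher with IgG Ab than in Control and passed the adjusted threshold, as did 7.73% of 15129 genes tested. The log2 fold changes were 0.75 for Muc2 (SE 0.16, limma adjusted p = 0.0306), 1.06 for Spdef (SE 0.24, limma adjusted p = 0.0359) and 1.75 for Spink4 (SE 0.35, limma adjusted p = 0.0225). Retnlb had the largest fitted difference, 2.47 (SE 0.63), and a limma adjusted p of 0.0552. For Zg16, Fcgbp, Tff3, Agr2 and Atoh1 the log2 fold changes were then between -0.44 and -0.10. The IgG Ab group rests on 2 mice in this fit, whose spread is shared with the other groups, and leaving out a library because it was low makes the higher direction of the others more likely. The other leave-one-out fits gave 0 or 1 call.

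**Figure D2:**
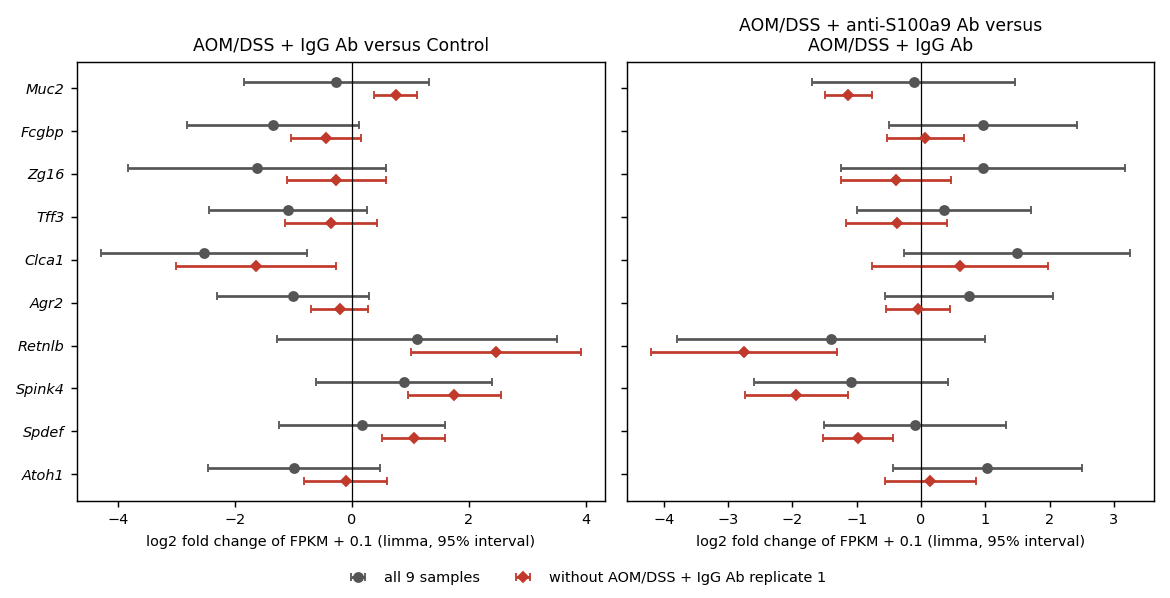
Log2 fold changes of FPKM + 0.1 (x axis) for the 10 goblet cell genes (y axis), with 95% intervals from limma, for AOM/DSS + IgG Ab vs Control (left) and anti-S100a9 Ab vs IgG Ab in AOM/DSS mice (right). Gray circles use all 9 samples, and red diamonds leave out IgG Ab replicate 1. With all samples only the interval of Clca1 on the left misses 0, and without that library those of Muc2, Retnlb, Spink4 and Spdef miss 0 on both sides, as that of Clca1 still does on the left.

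The balance among the goblet cell genes was also compared within each sample, where a common fall of all 10 genes cancels out. For this, the mean log2 level of the 10 genes in a sample was subtracted from each gene, and the difference was set against the Control mean. On this scale Spink4 was above Control in all 3 IgG Ab samples, by 1.79, 0.96 and 1.94, and so was Retnlb, by 1.00, 2.18 and 2.15. Spdef (1.01, 1.04 and 0.47) and Muc2 (0.30, 0.25 and 0.65) were likewise above every Control sample. Clca1 was below every Control sample, by 1.69, 1.02 and 2.86 on the log2 scale, as was Fcgbp, by 0.55, 0.66 and 0.84. These 6 genes are named because their IgG Ab samples did not overlap with Control, and the other 4 (Zg16, Tff3, Agr2 and Atoh1) overlapped. The share of all genes that would separate on this scale was not computed, so the count is only a description. As deposited, 20.7% of all genes were higher and 10.2% lower in every IgG Ab sample than in any Control sample. Compared with all 6 other samples rather than with Control, Muc2 and Spink4 stayed above and Fcgbp stayed below in the 3 IgG Ab samples, while Clca1, Spdef and Retnlb overlapped with the anti-S100a9 Ab samples. Since the 10 values of a sample sum to 0, a rise of some genes on this scale forces a fall of others, and no test was made.

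As shares of the summed FPKM of the 10 genes, Spink4 made up 13.5%, 13.5% and 14.4% in Control, 42.8%, 29.9% and 39.9% with IgG Ab, and 19.3%, 20.7% and 13.2% with anti-S100a9 Ab. Zg16 made up 29.8%, 27.9% and 31.8% in Control, 8.04%, 16.6% and 20.6% with IgG Ab, and 27.0%, 24.8% and 30.6% with anti-S100a9 Ab. The most abundant goblet cell transcript was thus Zg16 in the Control samples and Spink4 in all IgG Ab samples. The shares of Spink4, Zg16 and Fcgbp did not overlap between the IgG Ab samples and the others. For Fcgbp they were 1.4% to 2.4% with IgG Ab and 2.7% to 4.4% in the others. Shares of a sum are bound to each other, so a rise of Spink4 lowers the share of the other genes. In IgG Ab replicate 3 the FPKM of Zg16 was at 104% of its Control mean. The share of all genes that would separate in this way was not computed.

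**Figure D3:**
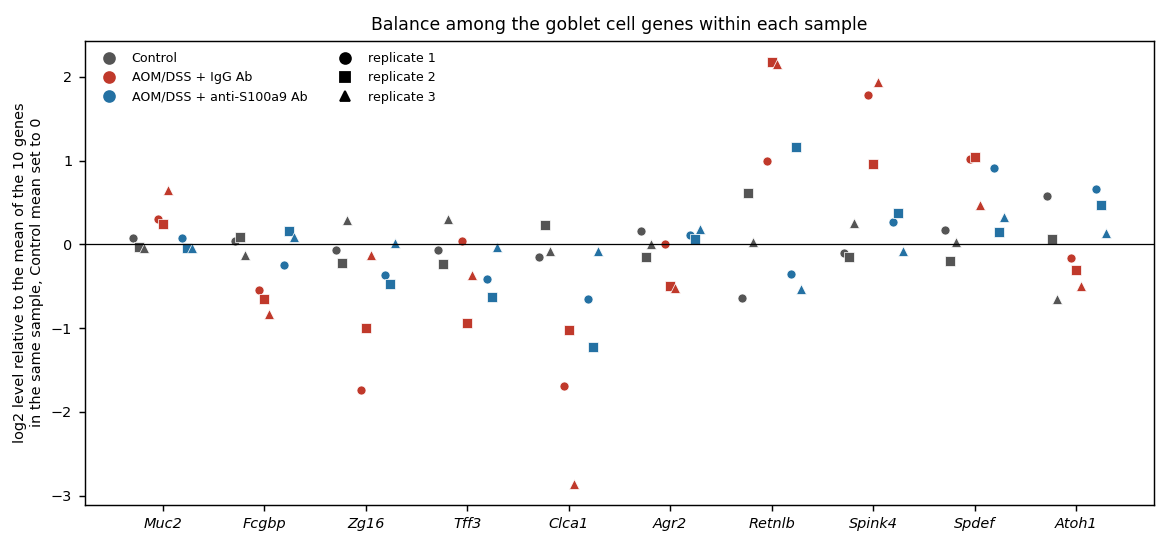
Log2 level of each goblet cell gene relative to the mean of the 10 genes in the same sample (y axis, Control mean set to 0), for the 9 mice, with colors for groups and symbols for replicates. All 3 IgG Ab samples lie above the Control samples for Muc2, Retnlb, Spink4 and Spdef and below them for Clca1 and Fcgbp.

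Across the 9 samples the goblet cell genes were correlated with each other on the log2 scale, with a median Pearson's r of 0.78 over 45 pairs (lowest -0.01, highest 0.99). Without IgG Ab replicate 1 the median over the 8 samples was 0.12, the lowest was -0.61 (Clca1 and Spink4) and the highest 0.97 (Zg16 and Tff3). In the 8 samples Muc2, Retnlb and Spink4 went together, with r of 0.88 for Muc2 and Retnlb, 0.93 for Muc2 and Spink4 and 0.90 for Retnlb and Spink4, and Fcgbp went with Agr2 (0.90). These points share groups and libraries, and genes are not independent, so the values are a description.

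The comparison anti-S100a9 Ab vs IgG Ab sets mice given either antibody against each other, all after AOM/DSS. The study describes the tissue as adenocarcinoma with IgG Ab and as mucosa with anti-S100a9 Ab, though it also introduces all 3 groups as mucosa. Antibody and tissue type therefore cannot be told apart here either. Of the 10 goblet cell genes, 0 passed an adjusted p of 0.05, 0 reached the thresholds of the study, and 0 had an unadjusted p under 0.05 (limma), against 21.1%, 16.0% and 39.1% of all genes tested. As deposited, none of the 10 separated the groups, while 18.5% of all genes were higher and 28.5% lower in every anti-S100a9 Ab sample. For each member, replicate 1 of the IgG Ab group was below the anti-S100a9 Ab values and at least 1 other IgG Ab sample above or among them. Under quantile normalization Agr2 was higher in every anti-S100a9 Ab sample, as were 22.6% of all genes. Clca1 had the largest fitted difference, 1.49 (SE 0.78, limma adjusted p = 0.185), followed by Retnlb with -1.40 (SE 1.05, limma adjusted p = 0.346), Spink4 with -1.09 (SE 0.67, limma adjusted p = 0.251) and Atoh1 with 1.03 (SE 0.65, limma adjusted p = 0.263). Zg16 and Fcgbp both gave 0.97, Agr2 0.75, Tff3 0.36, Spdef -0.09 and Muc2 -0.11. The median was 0.55, compared with -0.06 over all genes, and without IgG Ab replicate 1 it turned to -0.38, compared with -0.04.

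When IgG Ab replicate 1 was left out, 4 of the 10 genes were lower with anti-S100a9 Ab than with IgG Ab at an adjusted p under 0.05, in a fit in which 10.4% of all genes passed. They were Retnlb (log2 fold change -2.75, limma adjusted p = 0.0372), Spink4 (-1.94, limma adjusted p = 0.0185), Muc2 (-1.13, limma adjusted p = 0.00854) and Spdef (-0.97, limma adjusted p = 0.0427). Both remaining IgG Ab samples were above all Control and all anti-S100a9 Ab samples for these 4 genes, as they were for 17.8% of all genes tested. The log2 fold changes of Clca1, Zg16, Fcgbp, Tff3, Agr2 and Atoh1 were between -0.39 and 0.61 in this fit. With IgG Ab replicate 2 left out instead, Clca1 was the 1 gene that passed, higher with anti-S100a9 Ab by 2.45 on the log2 scale (limma adjusted p = 0.0180). The 2 comparisons with the IgG Ab group share its samples, so the same libraries stand behind both sets of values.

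AOM/DSS + anti-S100a9 Ab vs Control asks whether goblet cell genes differed from normal mucosa in mice given the antibody. None of the 10 passed by limma, with adjusted p-values from 0.510 to 0.978 and 0 of them at an unadjusted p under 0.05, and 2 of all 15278 genes (0.0131%) passed the adjusted threshold. By the thresholds of the study 0 of the 10 passed, compared with 3.15% of all genes, and at the unadjusted p alone 16.0% of all genes did. The fitted values were lower in 8 of 10, of which Agr2, Retnlb and Spink4 turned higher under quantile normalization, with a median of -0.33 against 0.04 over all genes. The lowest were Clca1 at -1.03 (SE 0.78), Tff3 at -0.73 (SE 0.60) and Zg16 at -0.65 (SE 0.97), and Spdef (0.08) and Atoh1 (0.04) were the highest. The spread in this fit is shared with the IgG Ab group. In the fit without IgG Ab replicate 1 the SE of Clca1 was 0.53, that of Tff3 0.31 and that of Zg16 0.33, and 0 of the 10 passed (0.033% of all genes did).

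As deposited, Agr2, Clca1, Muc2, Tff3 and Zg16 were lower in all 3 anti-S100a9 Ab samples than in any Control sample, and 13.7% of all genes tested did the same. This depended on the scale. Median-of-ratios scaling left the same 5 genes, with 15.9% of all genes lower. Scaling to the pan-epithelial genes left Muc2 alone, and the share of all genes fell as well, to 3.92%. Under quantile normalization none of the 10 was lower and Spink4 was higher, compared with 15.5% and 14.9% of all genes. Scaling to the pan-epithelial genes moved the median of all genes to 0.22 for this comparison.

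The goblet cell genes were compared with other epithelial genes to see whether the epithelium as a whole was low in IgG Ab replicate 1. Set against the mean of Control, the mean log2 level of the 10 goblet cell genes was -2.60, 0.40 and 0.20 in the IgG Ab samples, while that of 10 pan-epithelial genes was -0.18, -0.04 and 0.17. The absorptive colonocyte genes were at -4.49, -1.47 and -2.49 and the enteroendocrine genes at -2.64, -0.34 and 0.25, also lowest in replicate 1. The stem cell genes were at 3.45, 1.38 and 2.21, highest in replicate 1, where Sox9, a factor of crypt progenitors, stood at 56.9 FPKM against 20.6 and 26.5 in replicates 2 and 3 and 9.17 to 16.6 in Control. The part of these lineages in the level of the goblet cell genes was not tested.

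**Figure D4:**
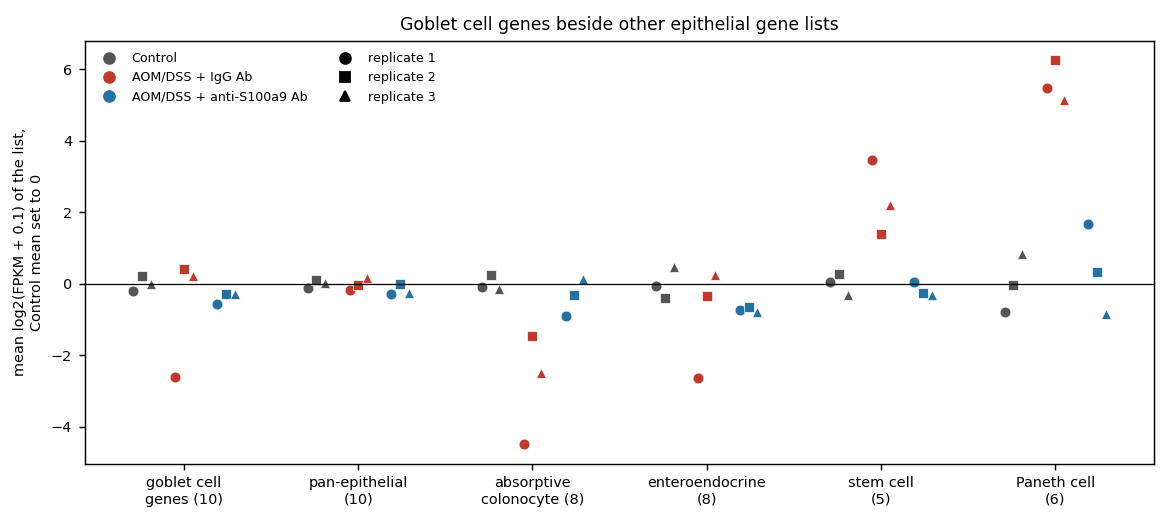
Mean log2(FPKM + 0.1) of the goblet cell genes and of 5 other epithelial gene lists in each of the 9 mice, with the Control mean of each list set to 0. IgG Ab replicate 1 (red circle) lies at -2.60 for the goblet cell genes and at -0.18 for the pan-epithelial genes.

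A further 22 genes known from goblet cells were listed apart from the 10, and all were tested. In AOM/DSS + IgG Ab vs Control 3 of them rose and 0 fell at an adjusted p under 0.05 (8.18% and 3.01% of all genes did), with a median log2 fold change of -0.29 that turned to 0.27 without IgG Ab replicate 1. Ang4, an antimicrobial ribonuclease also made by Paneth cells, was at 1.67, 23.6 and 25.9 FPKM in Control, 106, 301 and 371 with IgG Ab, and 5.64, 3.59 and 1.23 with anti-S100a9 Ab. Its log2 fold change was 4.47 (SE 1.03, limma adjusted p = 0.0278), and every IgG Ab sample was above all the other samples. Foxa3, a forkhead factor of goblet cells, was at 16.3, 21.3 and 16.6 FPKM in Control, 43.1, 29.0 and 32.8 with IgG Ab, and 16.8, 15.9 and 15.6 with anti-S100a9 Ab. Unlike the 10 genes, Foxa3 was highest in IgG Ab replicate 1, and it rose by 0.94 (SE 0.17, limma adjusted p = 0.0125). Fkbp11, a prolyl isomerase of the secretory pathway, rose by 0.82 (limma adjusted p = 0.0490). Klf4, a factor of goblet cell and colonocyte differentiation, was at 147, 158 and 111 FPKM in Control, 27.4, 126 and 93.3 with IgG Ab and 154, 195 and 191 with anti-S100a9 Ab (log2 fold change -0.996 with IgG Ab, limma adjusted p = 0.205).

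With anti-S100a9 Ab compared with IgG Ab, 0 of the 22 rose and 6 fell, against 6.72% and 14.4% of all genes. The largest falls were in Ang4 (-6.23, limma adjusted p = 0.00886), Tmed6, a cargo receptor of the secretory pathway (-1.47, limma adjusted p = 0.0336), Lrrc26, a subunit of goblet cell potassium channels (-1.10, limma adjusted p = 0.0123), and Foxa3 (-1.10, limma adjusted p = 0.00814). Leaving out IgG Ab replicate 1, 2 of the 22 rose with IgG Ab and 8 fell with anti-S100a9 Ab. Between anti-S100a9 Ab and Control 0 of the 22 passed the adjusted threshold and 2 had an unadjusted p under 0.05, and the most abundant, Klk1, gave -0.73 (SE 0.74) and Klf4 0.39 (SE 0.48).

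Few of the enzymes that glycosylate mucins passed the test, at a share near that of all genes (8.18% of which rose with IgG Ab vs Control and 6.72% with anti-S100a9 Ab vs IgG Ab). Of 17 such genes, 1 rose with IgG Ab vs Control, Galnt3, which starts O-glycans (0.94, SE 0.20, limma adjusted p = 0.0204), with a median of 0.04. With anti-S100a9 Ab vs IgG Ab, 1 rose, Gcnt1, which branches them (1.20, SE 0.24, limma adjusted p = 0.0156). Gcnt1 was at 9.61, 7.62 and 5.95 FPKM in Control, 3.82, 6.82 and 5.44 with IgG Ab, and 12.3, 11.4 and 12.6 with anti-S100a9 Ab, which was above all the other samples. The counts were again 1 and 1 without IgG Ab replicate 1. Against Control 0 passed with anti-S100a9 Ab and 3 had an unadjusted p under 0.05, with -0.34 (SE 0.38) for St6galnac6 and 0.23 (SE 0.47) for B3gnt3, the most abundant.

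Notch signaling, which holds progenitors back from the secretory fate, was read from 15 genes of ligands, receptors, targets and secretory fate factors. With IgG Ab vs Control 2 rose and 0 fell, compared with 8.18% and 3.01% of all genes. The 2 were the ligand Jag2 (1.10, limma adjusted p = 0.0428) and the target Hey1 (0.92, limma adjusted p = 0.0411). With anti-S100a9 Ab vs IgG Ab 0 rose and 1 fell, compared with 6.72% and 14.4% of all genes. The 1 that fell was the ligand Dll4 (-0.71, limma adjusted p = 0.0257). Without IgG Ab replicate 1 the counts were 0 in both comparisons. Hes1, the Notch target that represses Atoh1, was at 67.4, 67.0 and 71.6 FPKM in Control, 77.6, 45.2 and 79.0 with IgG Ab, and 38.4, 49.7 and 43.9 with anti-S100a9 Ab. All anti-S100a9 Ab values of Hes1 were below Control, by 0.65 on the log2 scale, with a limma adjusted p of 0.301. Of the 15 genes 0 passed between anti-S100a9 Ab and Control and 4 had an unadjusted p under 0.05 by limma, as did 16.0% of all genes. Sox9 gave 0.15 (SE 0.37).

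The type 2 cytokine axis, through which IL-4 and IL-13 are known to induce Retnlb, Clca1 and Muc2, was read from 12 genes, of which 8 passed the filter on low values. Il13 was between 0 and 0.147 FPKM in all 9 samples and was not tested. Il4, Il5 and Il25 were between 0 and 0.178 FPKM and were not tested either. With IgG Ab vs Control 3 rose and 0 fell, compared with 8.18% and 3.01% of all genes. Il1rl1, the receptor of IL-33, rose by 3.85 (SE 0.31, limma adjusted p = 0.00045), Il33 by 1.63 (SE 0.37, limma adjusted p = 0.0278) and the receptor subunit Il4ra by 1.08 (SE 0.29, limma adjusted p = 0.0447). Of the 8 genes, 4 had a higher and 4 a lower fitted level. The lowest were Il13ra2 at -1.18 (limma adjusted p = 0.131) and Tslp at -1.06 (limma adjusted p = 0.0737). Il4ra was at 7.90, 6.02 and 11.5 FPKM in Control, 13.5, 19.64 and 20.02 with IgG Ab, and 11.5, 8.09 and 13.8 with anti-S100a9 Ab. With anti-S100a9 Ab vs IgG Ab Il1rl1 fell by 2.75 (limma adjusted p = 0.00294) and Il33 by 1.49 (limma adjusted p = 0.0275), and Il13ra2, a decoy receptor of IL-13, rose by 2.12 (limma adjusted p = 0.0194). In that comparison 6.72% of all genes rose and 14.4% fell. Without IgG Ab replicate 1, 2 rose with IgG Ab, and 1 rose and 1 fell with anti-S100a9 Ab. Against Control 0 passed with anti-S100a9 Ab and 2 had an unadjusted p under 0.05 by limma, as did 16.0% of all genes. The most abundant, Il13ra1 and Stat6, gave 0.56 (SE 0.28) and 0.14 (SE 0.12).

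The genes whose pattern over the 9 samples was most like the mean of the 10 goblet cell genes were sought among 12542 genes with a mean of at least 1 FPKM. The 10 with the highest Pearson's r were Ppif (0.99), Slc12a8 (0.98), Gmds (0.97), Rab15 (0.97), Mia3 (0.97), Hpd (0.97), P2rx4 (0.97), Hfe (0.96), Ltc4s (0.96) and Mcoln2 (0.96). Gmds encodes an enzyme that makes the sugar donor for fucosylation, and Mia3 (TANGO1) helps load large cargo for export from the endoplasmic reticulum. Gmds was at 125, 142 and 137 FPKM in Control, 66.7, 129 and 141 with IgG Ab, and 113, 130 and 128 with anti-S100a9 Ab, so its fall in IgG Ab replicate 1 was smaller than that of the members. Without that replicate r was between 0.54 (Mia3) and 0.91 (Rab15) over 8 samples, and the likeness rests in part on that library.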

How the data were processed

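Colon RNA of 9 male ICR mice was sequenced (3 per group). The authors deposited FPKM values, 1 file per mouse with 21544 rows; the unit was read from the values. The authors' processing notes name TopHat, Cufflinks, HTSeq, DESeq and GRCm38, with no role or version. The depth is unknown, so no counting error was computed. The p-values measure the spread between samples of different mice, in which mouse, tissue and library cannot be told apart. Groups and replicate numbers come from the labels.

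Repeated symbols were summed. A filter of 0.1 FPKM or more in 3 or more samples left 15278 genes and all 10 members, which were compared as log2(FPKM + 0.1) with limma 3.58.1 in R 4.3.3 (all 9 samples in one fit, intensity trend, 8.87 degrees of freedom, Benjamini-Hochberg over all genes). The authors' DESeq test needs counts and was not repeated. Log2 values understate changes of low genes. Scripts were tested on simulated data. Positions are from GENCODE M21 on GRCm38, and sequences from RefSeq. The alternatives were median-of-ratios, quantile and pan-epithelial scaling, pseudocounts of 0.01 and 1, no filter or one of 1 FPKM, only the 2 groups compared, the replicate block, no intensity trend, leaving out each sample and array weights. Replicate numbers did not pair the samples.

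The members and lists were chosen with earlier results of these data known. All 10 members, Epcam, Hes1, Klf4, Foxa3, Il13 and Il4ra are named, as are the 10 genes most like the members by Pearson's r. From each other list up to 4 genes past the adjusted threshold with the largest change are named, or, where none passed, the 2 most abundant; in the closing lists some of these are given only as counts. Tables and figures were made with pandas 2.3.3, numpy 2.4.6 and matplotlib 3.10.9 in Python 3.11.15.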

Additional observations from a re-analysis of the deposited data

How the results depend on the processing

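Of the members' log2 fold changes under all alternatives except array weights, 539 kept their direction and their side of the adjusted threshold, 8 newly passed it with the same sign and 23 changed sign. Of those that changed sign, Muc2 in IgG Ab vs Control without IgG Ab replicate 1 (0.75) also passed it. The counts of members past the adjusted threshold ranged from 0 to 3 for IgG Ab vs Control, from 0 to 4 for anti-S100a9 Ab vs IgG Ab and from 0 to 0 for anti-S100a9 Ab vs Control when 1 sample was left out, and those past p and 2-fold from 1 to 4, from 0 to 3 and from 0 to 0. The counts above 1 arose when an IgG Ab sample was left out. Without IgG Ab replicate 1, 7.73%, 10.4% and 0.033% of all genes passed the adjusted threshold in the 3 comparisons. Those past p and 2-fold were then 10.3%, 12.7% and 3.48% of all genes. For the other alternatives the share of all genes past these thresholds is not given, so their counts say nothing particular to the members. Past p and 2-fold, scaling to the pan-epithelial genes gave 2 for IgG Ab vs Control and 1 for anti-S100a9 Ab vs IgG Ab, and the fit of only the 2 groups gave 1 for anti-S100a9 Ab vs Control. Array weights, chosen after seeing the data, gave IgG Ab replicate 1 the lowest weight (0.247). They gave 2, 2 and 1 members past p and 2-fold in the 3 comparisons and 1 past the adjusted threshold for anti-S100a9 Ab vs IgG Ab (Spink4, -1.56). The cause of these moves was not tested.

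When 1 sample was left out, the sign changed for Muc2 (-0.83 to 0.75) and Spdef (-0.46 to 1.06) in IgG Ab vs Control. In anti-S100a9 Ab vs IgG Ab it changed for Muc2 (-1.13 to 0.45), Zg16 (-0.39 to 1.82), Tff3 (-0.38 to 0.82), Agr2 (-0.046 to 1.20) and Spdef (-0.97 to 0.54), and in anti-S100a9 Ab vs Control for Spdef (-0.050 to 0.19), Retnlb (-0.87 to 0.12) and Atoh1 (-0.28 to 0.23). Quantile normalization turned Muc2 (0.11) and Spdef (0.049) in anti-S100a9 Ab vs IgG Ab and Agr2 (0.11), Retnlb (0.11) and Spink4 (0.29) in anti-S100a9 Ab vs Control. Pan-epithelial scaling turned Muc2 (0.048) and Spdef (0.069) in anti-S100a9 Ab vs IgG Ab. Array weights turned Muc2 (0.24) in IgG Ab vs Control, Tff3 (-0.12) in anti-S100a9 Ab vs IgG Ab and Atoh1 (-0.18) in anti-S100a9 Ab vs Control.

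With the replicate number as a block, 2 members passed p and 2-fold in IgG Ab vs Control (Clca1 and Fcgbp), and the other 5 counts were unchanged. The numbers do not pair the mice by the labels, and deviations of same-numbered samples correlated between -0.19 and 0.25.

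With 3 mice per group and 1 library far from its group, 2-fold differences of most members could not be told from 0. Depth per library is unknown.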

Other observations

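Other cell types of the colon moved with the groups as follows, at an adjusted p under 0.05 by limma, with counts without IgG Ab replicate 1 after them. Of all genes tested, 8.18% rose and 3.01% fell in IgG Ab vs Control, and 6.72% rose and 14.4% fell in anti-S100a9 Ab vs IgG Ab. Between anti-S100a9 Ab and Control 16.0% of all genes had an unadjusted p under 0.05 by limma. In IgG Ab vs Control 5 of 8 absorptive colonocyte genes fell (5 without that library), led by Car4 (-5.16), Slc26a3 (-4.03), Car1 (-2.65) and Guca2a (-2.50), while 4 of 5 stem cell genes rose (3), with Lgr5 at 3.11 and Axin2 at 3.03, and 4 of 6 Paneth cell genes rose (4), with Defa24 at 10.59 and Mmp7 at 9.67. Squamous epithelial genes rose in 5 of 6 tested (5), with Krt14 at 3.66, and fibroblast genes in 4 of 6 (3), with Col1a1 at 2.44. Of the enteroendocrine genes 1 of 8 fell (2), Neurod1 by 1.90, and of the tuft cell genes 1 of 6 rose (1), Avil by 4.18. The other 5 tuft cell genes had a lower fitted level, with Trpm5 at -1.12 (limma adjusted p = 0.156). Adipocyte genes fell in 4 of 4 tested (0), with Cfd at -6.43, and of the pan-epithelial genes 1 of 10 rose (0), Krt18 by 1.19. None of 5 smooth muscle, 8 leukocyte and 5 distal colon genes passed, and 2, 0 and 1 of them had an unadjusted p under 0.05 by limma.

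In anti-S100a9 Ab vs IgG Ab, 4 of 8 colonocyte genes rose (3), with Car4 at 4.58 and Slc26a3 at 4.12. All 5 stem cell genes fell (5), with Lgr5 at -3.84, as did 5 of 6 Paneth cell genes (5), with Mmp7 at -7.85, 5 of 6 squamous genes (4), with Krt4 at -3.40, and 3 of 6 fibroblast genes (3), with Col1a1 at -2.54. Of the smooth muscle genes 2 of 5 rose (1), Synm by 2.48 and Myh11 by 2.01, and of the distal colon genes 1 of 5 rose (0), Hoxd13 by 0.44. Avil (-4.16) was the 1 tuft cell gene and Krt18 (-1.42) the 1 pan-epithelial gene that fell, and the counts were 1 and 1 without that library. The other 5 tuft cell genes had a higher fitted level. For enteroendocrine, adipocyte and leukocyte genes 0 passed by limma, with 1, 0 and 2 at an unadjusted p under 0.05. Between anti-S100a9 Ab and Control 0 genes of these lists passed by limma, and those at an unadjusted p under 0.05 were 4 of 4 adipocyte, 2 of 6 Paneth cell, 2 of 6 fibroblast, 2 of 10 pan-epithelial and 1 each of the colonocyte, squamous, leukocyte and distal colon genes. The summed level of the adipocyte genes was 38.3 to 170 FPKM in Control and 0.246 to 15.0 FPKM in the 6 AOM/DSS samples. Their part in the level of the goblet cell genes was not tested.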
